A study of Mus musculus with 30 samples.

Results

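The fibroblasts compared here were exposed for 72 h either to IPFc, a cocktail of 9 factors, or to TGFb alone. They were 4 IPFc and 4 TGFb libraries, 8 of the 30 RNA-seq libraries of the series and 8 of its 15 fibroblast libraries, chosen by cell fraction and treatment label only. The fibroblasts were CCL206 cells, an established mouse lung fibroblast line stopped from dividing with mitomycin C. They were grown in lung organoid cultures with freshly isolated Epcam+ epithelial cells of C57BL/6J wild-type mice, male and female, older than 8 weeks, 300000 cells of each type, and were recovered as the Epcam-negative fraction with CD326 microbeads. Each of 4 numbered mice gave epithelial cells to 1 culture of each treatment, so the fibroblasts were 1 line throughout and the mouse number marked the epithelial partner and the culture. IPFc held TGF-β together with TNFα and IL-1β, the type 2 cytokines IL-4 and IL-13, the alarmins IL-33 and TSLP, and the chemokines IL-8 and CCL2, at concentrations not given in the sources used here, and TGFb was 2 ng/ml of TGF-β. Both arms therefore received TGF-β, but its dose is known in the TGFb arm only. The comparison asks how the fibroblast transcriptome differed between the 2 arms. A different dose of TGF-β and the 8 inflammatory factors that came with it cannot be told apart here.

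TGF-β acts through receptor serine kinases and SMAD proteins and is known for turning lung fibroblasts into contractile, collagen-producing myofibroblasts. TNFα and IL-1β act through NF-κB, which switches on chemokine, adhesion and acute phase genes. IL-4 and IL-13 share the receptor chain IL-4Rα and act through STAT6, IL-33 is sensed by ST2, and TSLP by a heterodimer of its own receptor with the IL-7 receptor chain. Idiopathic pulmonary fibrosis is a disease in which matrix-producing fibroblasts and a failing alveolar epithelium are found together, and such co-cultures are used to ask how a changed fibroblast serves the epithelium.

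The fibroblast libraries exposed to IPFc held more of many complement, acute phase and NF-κB target transcripts, and less of many contractile and collagen transcripts, than those exposed to TGFb. Complement C3, the central component of the complement cascade, stood at 2252 ± 234 CPM with IPFc and 25.0 ± 3.19 with TGFb (SD, n = 4 each), and smooth muscle actin Acta2 at 52.4 against 469 CPM. Levels are given in CPM, read counts relative to the library total after scaling by edgeR's TMM factors, and were not divided by gene length, so they are compared between libraries and not between genes. Of 17935 genes tested, 5197 were called in either direction (29.0%), with 2885 higher (16.1%) and 2312 lower (12.9%) in IPFc, by edgeR's quasi-likelihood test with mouse as a block at a Benjamini-Hochberg adjusted p under 0.05. More than a 2-fold difference was found for 1533 of the higher and 353 of the lower genes. On the first principal component of the most variable genes, which held 92.8% of the variance, the IPFc libraries lay from 30.3 to 54.7 and the TGFb libraries from -54 to -29.3.

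Not all of this RNA came from fibroblasts. The epithelial RNA share of a fibroblast library was read as the median, over epithelial reference genes, of its level divided by the level in the epithelial library of the same mouse and treatment. It was 12.6, 15.4, 19.0 and 32.3% in the IPFc libraries of mice 1 to 4, and 1.37, 2.86, 1.03 and 3.70% in the TGFb libraries. The 2 groups did not overlap, and the share was higher with IPFc in 4 of 4 mice, by 17.6 ± 7.87 percentage points (SD, n = 4), with an exact sign-flip permutation p of 0.13, the smallest that 4 pairs allow (two-sided). Vehicle libraries were at 18.9, 17.3 and 31.0% (mice 1, 3 and 4; the library of mouse 2 was not analysed here), so the TGFb libraries stood apart from the other groups rather than the IPFc libraries. Read from Y-linked genes instead, the mean share was 16.2% against 0.931%, and read from markers of alveolar type 2 (AT2) cells it was 37.1 to 54.3% against 2.14 to 10.4%, so AT2 transcripts stood above the median of the reference genes. For the TGFb library of mouse 1 the mean of the other 3 epithelial TGFb libraries served as partner.

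**Figure D1:**
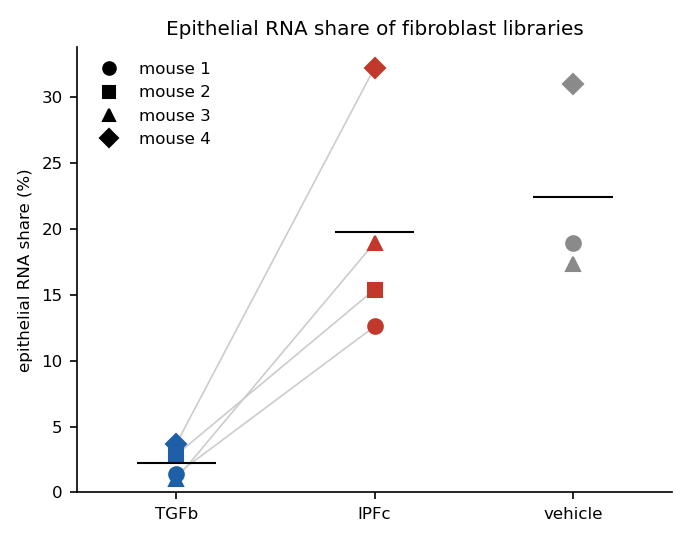
Epithelial RNA share (%) of each fibroblast library by treatment, with 1 symbol per mouse, black bars at group means and grey lines joining the TGFb and IPFc libraries of a mouse. The 4 TGFb libraries sit at 1.03 to 3.70%, the 4 IPFc libraries at 12.6 to 32.3% and the 3 vehicle libraries at 17.3 to 31.0%.

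Marker sums, in CPM before TMM scaling, differed between the groups. The 40 epithelial reference genes summed to 4611 to 11460 CPM with IPFc and 397 to 986 CPM with TGFb, and all 40 were called higher. The 20 fibroblast markers summed to 17560 to 23670 CPM with IPFc, 36920 to 41540 CPM with TGFb and 17600 to 20870 CPM with vehicle. Of the 19 fibroblast markers tested, 12 were lower in IPFc and 2 higher, among them the collagens described below. Fn1 was the largest member of the sum, at 7867 to 11260 CPM with IPFc and 17730 to 19380 with TGFb. Pdgfra, the receptor that marks lung fibroblasts of the alveolar niche, was at 281 to 353 CPM with IPFc and 278 to 298 with TGFb, which checks the label of both groups, while Thy1 was at 0 in 7 of 8 libraries and at 0.0733 CPM in the other. In bulk libraries, fewer fibroblasts, less fibroblast RNA per cell and changed levels of the marker genes themselves cannot be told apart. The 25 immune markers summed to 101 to 142 against 28.1 to 41.2 CPM, of which Cd14 and Lyz2 made up most with IPFc. Ptprc, the pan-leukocyte marker, did not pass 0.487 CPM in any of the 8 libraries. The 18 endothelial markers summed to 25.8 to 38.2 against 12.5 to 20.9 CPM, with Cldn5 and Sox17 at 0 throughout. Of the 10 endothelial markers tested, 3 were higher, 1 was lower and 6 were not called. Pecam1 went against the sum, at 0.3875 to 0.9739 CPM with IPFc and 1.624 to 2.64 with TGFb. Club and goblet cell markers summed to 165 to 459 CPM with IPFc and 5.39 to 17.8 with TGFb, and ciliated cell markers to 27.8 to 35.8 against 8.45 to 11.3.

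The share sets how each gene can be read. For each gene the expected epithelial part was computed as the share times the partner level, as a percent of the fibroblast library's level in the group where the gene was higher. An expected part of 25% or more was called epithelial-mixed. This held for 1769 of the 2885 higher genes (61.3%) and for 1 of the 2312 lower genes. Among all tested genes, called or not, it held for 3870 with a higher and 27 with a lower level. The part of lower genes was computed with the TGFb shares of 1.03 to 3.70%, so few of them could reach 25%. The 2 directions are therefore not compared by these counts. Left as unmixed were 1116 higher and 2311 lower called genes, 394 and 352 of them past 2-fold. After the expected epithelial reads were subtracted from every library, 1968 genes were called higher (11.0%) and 2117 lower (11.8%). Among the genes that were not mixed, 1055 of the 1116 higher and 1345 of the 2311 lower were called again in that fit. The 10051 genes with an expected part under 5% had a median log2 fold change of -0.18, against -0.00 over all genes, and of -0.14 with subtraction. Because the part was taken in the higher group and TGFb shares were low, this cut passes lower genes more readily than higher ones. The negative median follows at least in part from the cut and is not read as a shift of these genes.

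**Figure D2:**
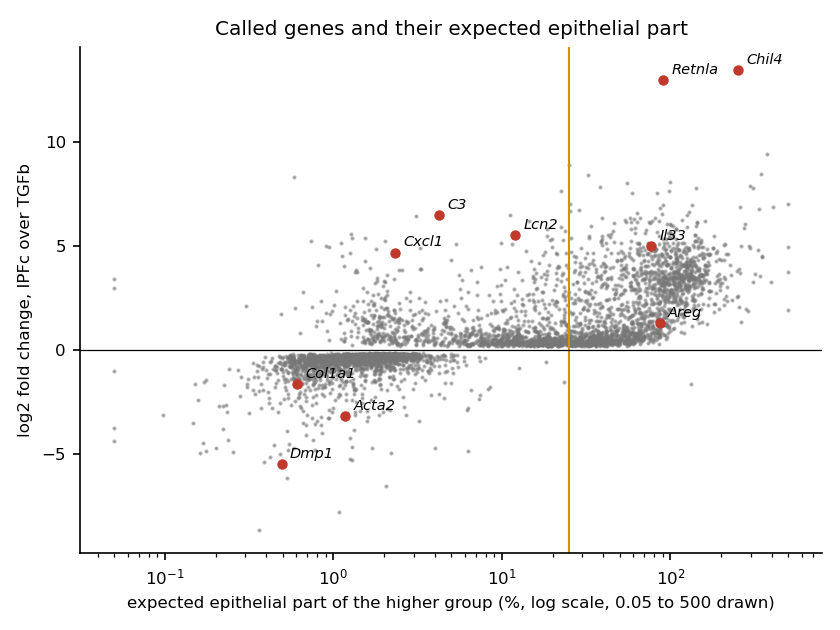
Log2 fold change (IPFc over TGFb) of each called gene against its expected epithelial part (%, log scale), with the 25% line in orange and named genes in red. The higher genes spread on both sides of the line, whereas the lower genes lie on its left except for 1 gene, Ctse. The part of lower genes was computed in the TGFb libraries, whose low shares keep it small.

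The 12 genes higher in IPFc with the smallest adjusted p among unmixed genes were led by the complement cascade. C3 was at 2372, 2394, 2339 and 1903 CPM in the IPFc libraries of mice 1 to 4 and at 20.6, 27.6, 24.7 and 27.1 in the TGFb libraries. All IPFc libraries lay above the 985 to 1118 CPM of the vehicle libraries, and all TGFb libraries far below them. The log2 fold change was 6.48 ± 0.10 (SE; edgeR quasi-likelihood, adjusted p = 3.21e-18), and the expected epithelial part 4.22%. C1s1 and C1ra encode the serine proteases that open the classical pathway, and C4b its next component. C1s1 was at 298 to 434 CPM with IPFc, 31.9 to 39.1 with TGFb and 369 to 459 with vehicle (log2 fold change 3.33). C1ra was at 93.3 to 120 against 10.3 to 12.8 CPM (3.21), and C4b at 35.3 to 41.3 against 1.5 to 2.38 CPM (4.25), where vehicle cultures were higher still, at 82.7 to 89.2.

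Chemokine and NF-κB genes were the next set. Cxcl1, a neutrophil chemokine that takes the place of human IL-8 in mice, was at 73.3, 160, 180 and 408 CPM with IPFc and at 3.17, 7.67, 6.11 and 14.4 CPM with TGFb. Mouse 1 was lowest and mouse 4 highest in each group, as also in the vehicle libraries (46.5, 193 and 478 CPM for mice 1, 3 and 4), and the groups did not overlap. The log2 fold change was 4.67 ± 0.09 (edgeR, adjusted p = 1.97e-16), with an expected epithelial part of 2.33%. Nfkbia, the NF-κB inhibitor that NF-κB itself induces, was at 124, 194, 305 and 447 CPM with IPFc and 33.9, 58.6, 79.4 and 104 CPM with TGFb, in the same order of mice (log2 fold change 1.91 ± 0.07, adjusted p = 7.17e-13 by edgeR). The epithelial share was also highest in mouse 4, and its part in this order was not tested.

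The other 6 genes of this set encode secreted, receptor or signalling proteins. Serpina3n, an acute phase protease inhibitor, was at 21.5 to 33.4 CPM with IPFc and 0.710 to 0.815 with TGFb (log2 fold change 5.15), and ceruloplasmin Cp, the copper carrier of plasma, at 1038 to 1367 against 251 to 369 CPM (1.93). Enpp2, or autotaxin, which makes lysophosphatidic acid, was at 97.0 to 132 against 10.2 to 13.8 CPM (3.25), with 189 to 246 CPM in vehicle cultures. Lifr, the receptor of leukemia inhibitory factor, was at 52.9 to 90.2 against 9.84 to 17.6 CPM (2.48). The selenium carrier Selenop (log2 fold change 2.12) and the kinase Pak3 (1.61) completed the set.

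The 11 leading unmixed genes lower in IPFc that are described here, chosen in the same way, included mineralisation, contractile and matrix genes. Dmp1, a phosphoprotein of mineralised matrix, was at 4.48, 4.18, 6.96 and 4.58 CPM with IPFc and at 230, 214, 214 and 260 CPM with TGFb. Vehicle libraries held 0.911 to 1.91 CPM, so that every IPFc library lay slightly above vehicle and every TGFb library far above both (log2 fold change -5.50 ± 0.12, edgeR, adjusted p = 3.48e-16). Acta2, the actin that defines myofibroblasts, was at 52.5, 48.8, 70.4 and 38.1 CPM with IPFc, 503, 412, 606 and 355 with TGFb, and 53.7, 53.1 and 42.6 with vehicle. IPFc and vehicle libraries thus overlapped, and the TGFb libraries stood apart (log2 fold change -3.17 ± 0.07, edgeR, adjusted p = 3.98e-16). Tagln, an actin-binding protein of smooth muscle, was at 5.41 to 9.96 against 76.2 to 127 CPM (-3.86), and cardiac troponin T, Tnnt2, at 9.83 to 14.5 against 103 to 150 CPM (-3.58).

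Col7a1, the anchoring fibril collagen, was at 47.3, 57.0, 65.9 and 45.8 CPM with IPFc and 506, 458, 585 and 498 CPM with TGFb (log2 fold change -3.26 ± 0.08, edgeR, adjusted p = 2.91e-15). Each IPFc library lay above the vehicle range of 27.7 to 38.9 CPM. Sema7a, a membrane-anchored semaphorin, was at 13.9 to 18.7 against 169 to 190 CPM (-3.54), with 3.79 to 5.71 in vehicle cultures. The adhesion molecules Ncam1 (log2 fold change -2.56) and Cdh11 (-2.28), the engulfment receptor Megf10 (-2.94), the matricellular protein Ccn4 (-2.11) and the secreted protease Prss23 (-2.13) were the others. The rule that chose these genes asked for the same direction in 4 of 4 mice.

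**Figure D3:**
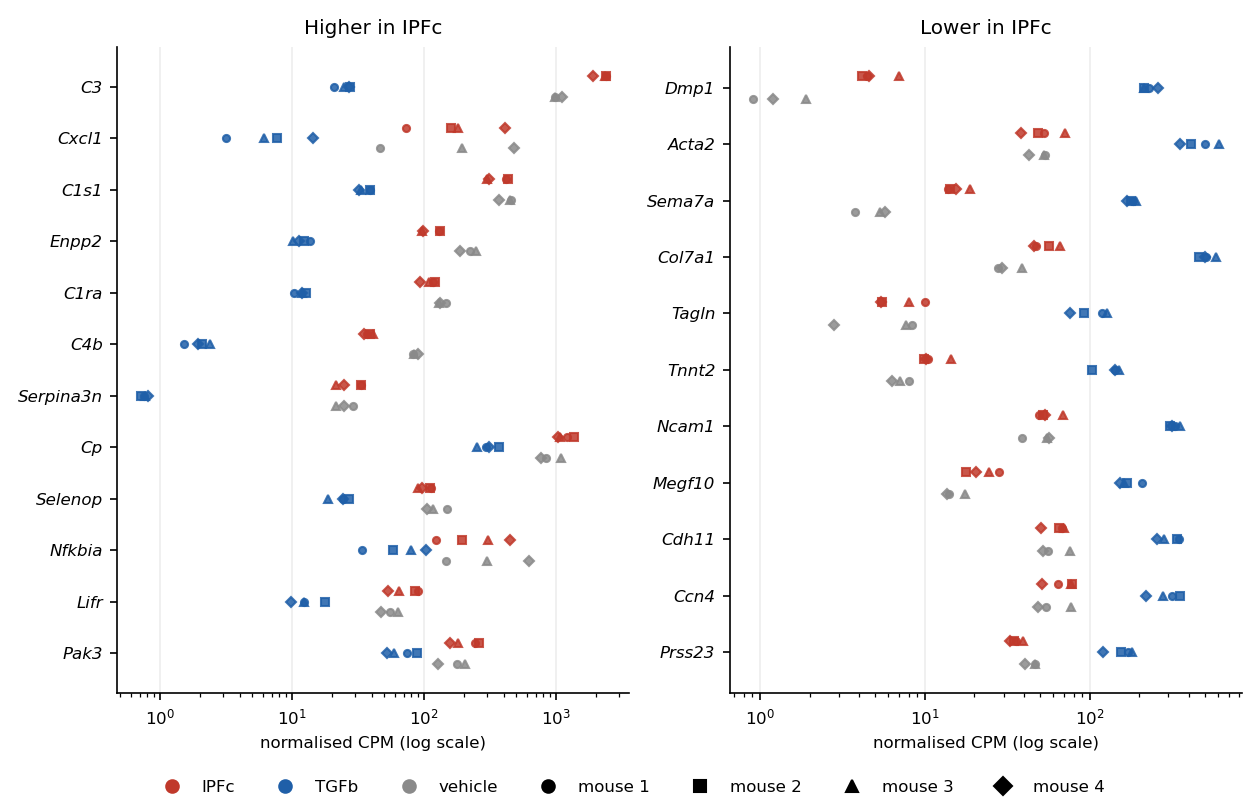
Levels (normalised CPM, log axis) of the 12 higher and 11 lower unmixed genes in each of the 4 IPFc (red), 4 TGFb (blue) and 3 vehicle (grey) libraries, with 1 symbol per mouse. No IPFc point overlaps a TGFb point of the same gene, which the choice of genes by smallest adjusted p favours. Of all called genes, 2104 of the 2885 higher and 1328 of the 2312 lower ones did not overlap. The vehicle points lie near the IPFc points for most genes shown, with C3, C4b, Enpp2, Dmp1 and Sema7a as the clearest exceptions.

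Promoter sequence is shown for 4 of these genes, chosen because their windows hold a match. Letters of SMAD sites were searched because both arms received TGF-β. Those of NF-κB sites were searched because only IPFc also held TNFα and IL-1β. Windows of other leading genes, such as C3, C1s1 and Sema7a, held no match. RefSeq windows of the build GRCm38.p6, from 250 bases before to 50 after an annotated start, were matched by symbol for 16 of the 23 genes. The capitals mark the κB letters GGGANNTTCC in the first 2 and the SMAD-binding CAGA box CAGACA or its reverse complement in the last 2, searched on both strands. In Cxcl1 a pair of κB matches on opposite strands overlap.
Cxcl1, chr5:90890995-90891294, plus strand: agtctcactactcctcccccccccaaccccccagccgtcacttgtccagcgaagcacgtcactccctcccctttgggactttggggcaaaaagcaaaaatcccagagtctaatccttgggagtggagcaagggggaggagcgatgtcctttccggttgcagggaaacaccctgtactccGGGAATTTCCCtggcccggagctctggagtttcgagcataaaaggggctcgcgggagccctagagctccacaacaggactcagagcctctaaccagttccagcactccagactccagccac
Nfkbia, chr12:55492598-55492897, minus strand: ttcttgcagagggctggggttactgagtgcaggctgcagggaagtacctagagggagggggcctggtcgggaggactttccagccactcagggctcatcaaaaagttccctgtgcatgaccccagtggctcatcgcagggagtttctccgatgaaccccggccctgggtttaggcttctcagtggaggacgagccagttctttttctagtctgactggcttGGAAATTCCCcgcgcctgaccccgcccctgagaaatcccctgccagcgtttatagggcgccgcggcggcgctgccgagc
Acta2, chr19:34255324-34255623, minus strand: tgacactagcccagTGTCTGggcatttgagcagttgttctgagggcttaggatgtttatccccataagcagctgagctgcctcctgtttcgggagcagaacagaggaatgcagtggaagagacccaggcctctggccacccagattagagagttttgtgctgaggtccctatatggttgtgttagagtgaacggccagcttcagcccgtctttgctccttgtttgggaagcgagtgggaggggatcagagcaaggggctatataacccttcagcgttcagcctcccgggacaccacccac
Col7a1, chr9:108953336-108953635, plus strand: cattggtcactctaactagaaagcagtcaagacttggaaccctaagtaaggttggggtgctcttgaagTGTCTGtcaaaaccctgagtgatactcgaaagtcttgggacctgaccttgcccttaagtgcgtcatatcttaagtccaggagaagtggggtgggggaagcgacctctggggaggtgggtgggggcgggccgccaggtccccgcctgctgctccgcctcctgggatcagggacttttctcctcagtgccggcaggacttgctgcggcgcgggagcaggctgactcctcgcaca
The κB letters were in 2 of 17 windows of the higher genes and 0 of 14 of the lower genes, against 1.47% of all 32851 windows. The CAGA box was in 3 of 17 and 4 of 14, against 21.0% of all windows. Besides Acta2 and Col7a1, it lay in windows of the lower genes Dmp1 and Prss23 and of the higher genes Lifr and Pak3. For the STAT6 letters TTCNNNNGAA the counts were 1 of 17 and 0 of 14, against 6.95%. AP-1 letters, TGANTCA, were in 1 of 17 and 2 of 14, against 7.81%. These are matches of letters and do not show binding.

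The known TGF-β targets and feedback genes went in both directions. Of 36 tested, 20 were lower and 9 higher in IPFc, with a median log2 fold change of -0.35 (15 lower and 10 higher after subtraction). Without the 4 mixed genes 20 were lower and 5 higher, and the median was -0.40. Pmepa1, a feedback inhibitor of SMAD signalling, was at 105, 111, 156 and 152 CPM with IPFc and 472, 431, 469 and 487 with TGFb (-1.85), and the vehicle libraries at 80.8 to 110 overlapped the IPFc range. Il11, a TGF-β-induced cytokine of fibroblasts, was at 3.01 to 7.74 against 10.4 to 15.2 CPM (-1.32), and Ccn2, or connective tissue growth factor, at 15.3 to 32.1 against 78.8 to 164 CPM (-2.36). Inhba, the activin subunit (-1.24), and Tgfb1 itself (-1.08) were lower with IPFc than with TGFb. Their IPFc means of 100 and 68.7 CPM were above the vehicle means of 76.8 and 54.8 CPM. Smad7 changed by -0.32 and was not called after subtraction, when it stood at -0.16. Tgfbr3, the co-receptor betaglycan, was higher, at 150 to 243 against 80.9 to 101 CPM (1.17), as were Id1 (1.00) and Id3 (0.66), targets of BMP signalling. The vehicle means of Tgfbr3, Id1 and Id3 were 252.6, 105.5 and 177.6 CPM. They lay nearer to the IPFc means of 206.7, 113 and 177 than to the TGFb means of 90.55, 56.31 and 114.1 CPM.

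Contractile genes had the lowest median of the 24 lists. Of 28 tested, 22 were lower and 1 higher, with a median log2 fold change of -0.89, and after subtraction 21 were lower and 1 higher. Beyond Acta2 and Tagln, Actg2 (-3.39), Cnn1 (-3.11), Myl9 (-2.16) and Cald1 (-1.45), which encode actin, calponin, myosin light chain and caldesmon of smooth muscle, were lower, as was Itga11, a collagen receptor of myofibroblasts, at 1.65 to 3.39 against 12.6 to 15.9 CPM (-2.39). Mylk, the myosin light chain kinase, went the other way, at 45.7 to 63.2 against 28.0 to 34.0 CPM (0.79).

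Most collagen genes tested were lower with IPFc, and collagen VI split. Of 25 collagen genes tested, 14 were lower and 3 higher, with a median of -0.62 (12 and 4 after subtraction). Col1a1 was at 1413, 1306, 1743 and 1162 CPM with IPFc and 4095, 3797, 5160 and 4309 with TGFb, and the vehicle libraries, at 1191 to 1364, lay within the IPFc range (log2 fold change -1.64 ± 0.07, edgeR, adjusted p = 2.54e-12). Col1a2 (-1.15), Col5a1 (-1.47), Col5a2 (-1.32), Col11a1 (-2.10) and the basement membrane genes Col4a1 (-1.24) and Col4a2 (-1.18) were also lower. Col6a1 was higher, at 283 to 361 against 91.1 to 134 CPM (1.44), and Col6a2 likewise (1.38), while Col6a3, whose chain assembles with both, was lower (-1.15). Col3a1 was also lower (-0.62), with means of 860 CPM with IPFc, 1308 with TGFb and 834 with vehicle.

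Of 26 genes that process collagen, 16 were lower, 2 higher and 8 not called. Their median was -0.28, against -0.00 over all genes tested. Genes with an expected part under 5%, a cut that favours lower genes, stood at -0.18. After subtraction 11 collagen-processing genes were lower and 6 higher, with a median of -0.16 against -0.14 for that cut. The collagen chaperone Serpinh1 (-0.70), the procollagen C-proteinase Bmp1 (-0.70), the lysyl oxidase Loxl2 (-1.03) and Sparc (-1.02) were among the 16. With the AT2 share subtracted, Serpinh1 (-0.089), Bmp1 (-0.15) and Loxl2 (-0.38) lost their calls, with adjusted p from 0.152 to 0.34 by edgeR, and Sparc kept its call (-0.61). Of 29 elastic fibre and matrix glycoprotein genes, 15 were lower and 6 higher (median -0.31; 12 and 7 after subtraction). Fibronectin Fn1 was at 7624 to 11230 CPM with IPFc and 18520 to 20350 with TGFb (-1.0), and fibrillin Fbn1 at 302 to 487 against 863 to 1197 CPM (-1.42). Eln and Postn, for elastin and periostin, did not pass 0.238 and 0.416 CPM in any IPFc library but were at 2.42 to 3.67 and 2.44 to 4.34 CPM with TGFb. Tenascin-X, Tnxb, was higher, at 11.9 to 29.3 against 1.5 to 4.25 CPM (2.82), and still higher in vehicle cultures, at 38.9 to 50.9.

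Proteoglycan genes were mixed in direction. Of 27 tested, 9 were lower and 6 higher, and 7 and 9 after subtraction. The median was -0.15, against -0.00 over all genes and -0.18 over those with an expected part under 5%. Biglycan Bgn was at 2018 to 2758 against 4073 to 5555 CPM (-1.08) and glypican-6 Gpc6 at 59.3 to 86.4 against 20.6 to 32.2 CPM (1.51). Matrix proteases and their inhibitors leaned the other way, with 16 higher and 11 lower of 37 tested (median 0.45; 20 and 10 after subtraction). Stromelysin-1, Mmp3, was at 18.2 to 23.8 against 1.92 to 4.55 CPM (2.66), and gelatinase B, Mmp9, at 22.9 to 25.7 against 7.6 to 11.7 CPM (1.34). The aggrecanases Adamts1 (1.84) and Adamts5 (1.97) were higher, and Timp1, an inhibitor of these proteases, was lower, at 97.9 to 124 against 249 to 303 CPM (-1.34). Mmp2 was lower with IPFc than with TGFb by 0.97 on the log2 scale.

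**Figure D4:**
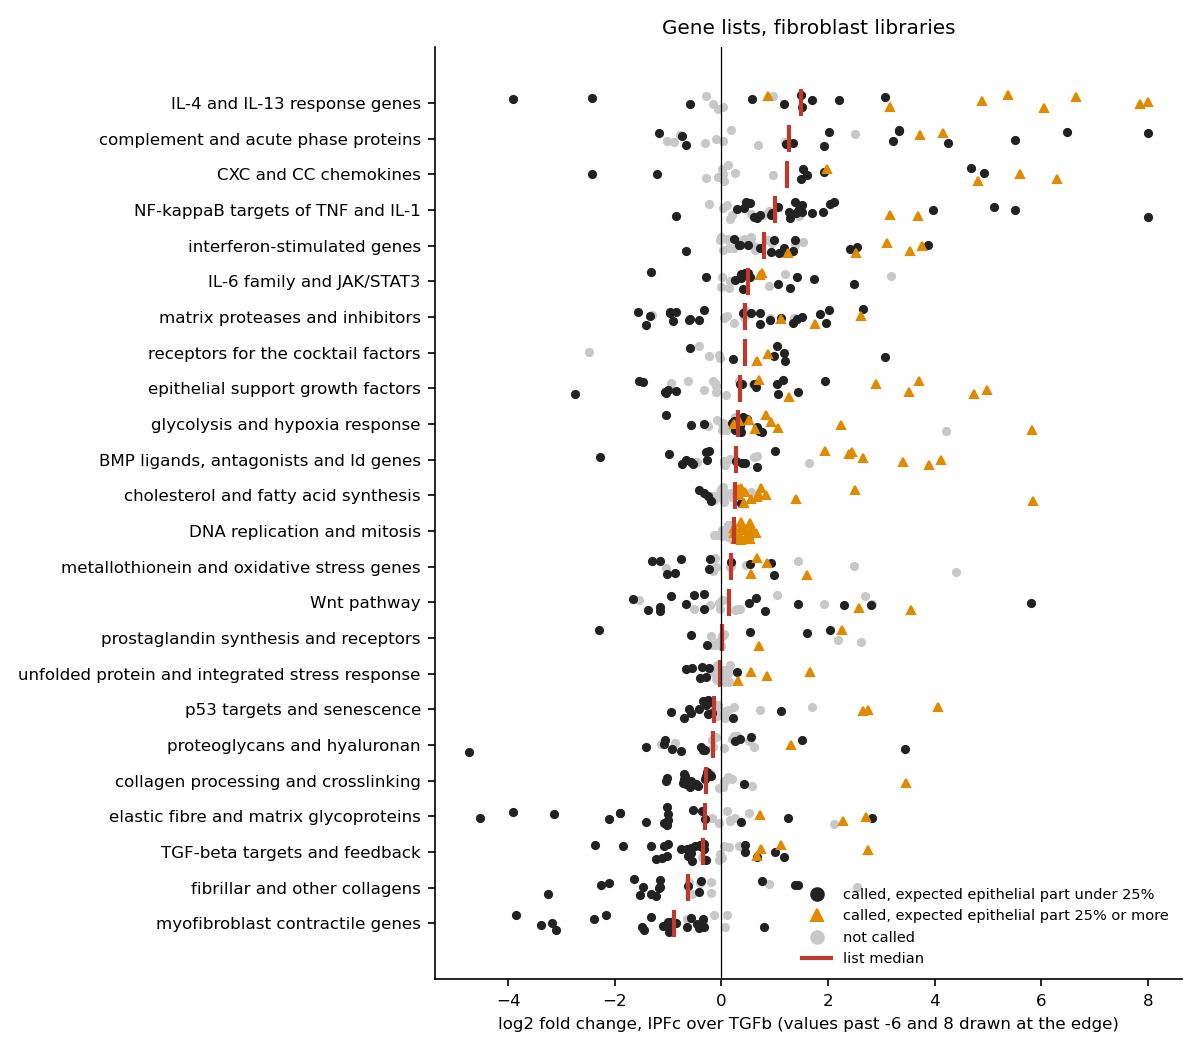
Log2 fold change (IPFc over TGFb) of every tested member of the 24 gene lists, sorted by list median (red bar): called and unmixed genes in black, called and epithelial-mixed genes as orange triangles, genes not called in grey. The medians run from -0.89 for contractile genes to 1.5 for IL-4 and IL-13 response genes, and all 18 called cell cycle genes and 14 of the 19 called cholesterol genes are mixed.

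Of 38 NF-κB targets of TNFα and IL-1β tested, 28 were higher, 1 lower and 9 not called (median 1.00). Of the higher ones 26 were unmixed, and after subtraction 30 were higher and 1 lower. Lipocalin-2, Lcn2, an iron-binding acute phase protein, was at 21.3, 32.5, 30.0 and 26.0 CPM with IPFc, 0.0835, 1.28, 0.643 and 0.376 with TGFb and 9.94, 12.2 and 13.0 with vehicle. Each IPFc library was above each vehicle library and each vehicle library above each TGFb library (log2 fold change 5.51 ± 0.23 over TGFb, edgeR, adjusted p = 2.67e-12; expected epithelial part 11.9%). Vcam1, a leukocyte adhesion molecule, was at 351 to 526 against 113 to 144 CPM (1.70), within the 402 to 685 CPM of vehicle cultures in part. Tnfaip3, the deubiquitinase A20 that limits NF-κB, was at 79.1, 152, 201 and 301 CPM against 47.4, 59.6, 66.2 and 61.2 CPM (1.51). Irf1 was higher with IPFc than with TGFb by 1.38 on the log2 scale. Irak2, a kinase of the IL-1 receptor pathway, was the 1 lower member (-0.85). Saa3, serum amyloid A3, was read in every IPFc library, at 0.952 to 3.75 CPM, and in none of the TGFb libraries.

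Of 20 chemokine genes tested, 10 were higher and 2 lower (median 1.23), and 8 and 2 after subtraction. Without the 4 mixed genes 6 were higher and 2 lower, and the median was 0.19. The monocyte chemokine Ccl2, itself a cocktail factor, was at 239, 346, 376 and 452 CPM with IPFc and 87.7, 135, 142 and 93.4 CPM with TGFb. Vehicle libraries, at 174 to 516 CPM, spanned the IPFc range (log2 fold change 1.61 ± 0.11, edgeR, adjusted p = 2.56e-09). Ccl7 was at 50.6 to 81.0 against 14.9 to 24.0 CPM (1.91). Ccl8, in contrast, was at 29.3 to 50.5 CPM with IPFc and at 9.20 to 18.9 and 10 to 20.4 CPM with TGFb and vehicle, so IPFc stood above both (1.5). Cxcl12, the stromal chemokine that retains CXCR4-bearing cells, was lower, at 321 to 496 against 839 to 951 CPM (-1.2), with vehicle between them at 603 to 805. Cxcl5, another neutrophil chemokine, was at 33.1 to 72.3 against 0.451 to 0.710 CPM (6.30), with an expected epithelial part of 60.4%.

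Complement and acute phase genes had 13 higher and 3 lower of 26 tested (median 1.27; 13 and 1 after subtraction). Beyond C3, C1s1, C1ra, C4b, Cp and Lcn2, the C1 inhibitor Serping1 was at 19.6 to 23.8 against 4.92 to 5.45 CPM (2.02), and Lbp, the lipopolysaccharide-binding protein, was higher by 1.2 on the log2 scale. Osteopontin Spp1, a matricellular protein abundant in fibrotic lungs, was lower, at 13250 to 14650 against 20640 to 28820 CPM (-0.74), but above the 6191 to 7261 CPM of vehicle cultures. In the IL-6 family, 14 of 23 genes were higher and 2 lower (median 0.49; 14 and 1 after subtraction). The oncostatin M receptor Osmr, which like Lifr pairs with gp130, was at 116 to 208 against 43.2 to 62.9 CPM (1.74), and Socs3, the feedback inhibitor of STAT3, at 211 to 267 against 69.7 to 110 CPM (1.42). Of 38 interferon-stimulated genes, 20 were higher and 1 lower (median 0.80; 21 and 2 after subtraction), with Gbp2 at 60.9 to 101 against 21.4 to 37.1 CPM (1.38).

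IL-4 and IL-13 response genes carried the highest list median, 1.5, with 15 higher and 3 lower of 23 tested, but 10 of the 23 were epithelial-mixed. The 13 others had a median of 0.57, 7 of them higher and 3 lower, and after subtraction 11 of the 23 were higher. Il13ra2, the decoy receptor that STAT6 induces in fibroblasts, was at 11.3, 11.0, 6.01 and 5.78 CPM with IPFc, 1.67, 1.35, 0.643 and 0.501 with TGFb and 4.71, 3.67 and 2.57 with vehicle. All IPFc libraries lay above all vehicle libraries (log2 fold change 3.07 ± 0.23 over TGFb, edgeR, adjusted p = 6.52e-09; expected epithelial part 9.37%). Cish, a STAT-induced inhibitor of cytokine signalling, was at 33.6 to 54.6 against 17.6 to 25.8 CPM (1.17), and Chil1, a chitinase-like protein, at 90.4 to 196 against 2.96 to 8.67 CPM (4.89), with an expected part of 29.3%. Retnla and Chil4, textbook products of IL-13-exposed airway epithelium, were mixed. Retnla was at 117 to 254 CPM with IPFc, with at most 0.0627 CPM in a TGFb library and 13.0 to 30.1 in vehicle, and Chil4 at 193 to 485 CPM with at most 0.0644 and 0.0759 CPM. Their expected epithelial parts were 90.6 and 251%. Agr2, Cd177 and Reg3g, the other mixed genes with the highest fold changes, were at 4.40 to 8.94, 2.63 to 7 and 8.36 to 10.1 CPM with IPFc and at or near 0 with TGFb. The 1 mixed lower gene, Ctse, was at 0.587 to 1.61 against 1.67 to 5.89 CPM (-1.63).

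Receptors for the cocktail factors were not all read in the fibroblast libraries. Of 20 receptor genes listed, 14 passed the filter of a mean of 1 read, 8 were higher and 1 lower (median 0.44). Without the mixed genes 6 were higher and 1 lower (median 0.10), and after subtraction 8 and 1. Neither a receptor of IL-8 nor the IL-7 receptor chain was among the 14. The TGF-β receptor Tgfbr2 was at 184 to 188 CPM with IPFc and 173 to 203 with TGFb (-0.05 ± 0.06, edgeR, adjusted p = 0.636), and the IL-1 receptor Il1r1 at 50.1 to 64.6 against 49.7 to 69.1 CPM (-0.03 ± 0.07, adjusted p = 0.811). Its co-receptor chain Il1rap was at 24.8 to 30.6 against 11.3 to 17.4 CPM (0.99), and vehicle libraries, at 12.1 to 21.3, overlapped the TGFb range only. Il13ra1 was at 95.7 to 173 against 45.3 to 79.6 CPM (1.03), the TNF receptors Tnfrsf1b at 55.8 to 73.2 against 23.7 to 31.6 (1.19) and Tnfrsf1a at 182 to 212 against 152 to 203 CPM (0.22, adjusted p = 0.047 by edgeR). The Tnfrsf1a call was lost without mouse 1 (0.17), mouse 2 (0.18) or mouse 3 (0.23), with adjusted p from 0.106 to 0.213, without the mouse block (0.208), with all 15 fibroblast libraries in one model (0.244), under DESeq2 (0.0566) and with edgeR's own count filter (0.0631). Il4ra (0.87) and Tgfbr1 (0.67) were called higher with expected epithelial parts of 34.5 and 36.3%. Il1rl1, which encodes the IL-33 receptor ST2, was the 1 lower receptor, at 58.4 to 77.8 against 85.9 to 128 CPM (-0.58), with vehicle below both at 36.6 to 54.7 CPM. Crlf2, the TSLP receptor, was at 33.9 to 48.8 against 34.6 to 59.2 CPM (-0.23, adjusted p = 0.0695 by edgeR, and -0.28 with 0.0474 without mouse 1). Ccr2 and Il2rg did not pass 1.00 CPM in any of these libraries, and Ccr2 was called lower only when mouse 2 was left out or under limma-voom or the offset.

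Of the cocktail factors' own genes, Ccl2 and the IL-8 counterpart Cxcl1 are given above, and Tgfb1 was at 64.1 to 74.7 CPM with IPFc and 124 to 186 with TGFb. Tnf did not pass 0.526 CPM and Tslp 0.579 CPM in any of the 8 libraries, and Il1b, Il4 and Il13 had a mean under 1 read and were not tested. Il33 was at 49.2, 79.0, 53.8 and 71.3 CPM with IPFc, 0.918, 3.84, 1.48 and 1.94 with TGFb and 32.9, 34.4 and 32.7 with vehicle, and the groups did not overlap. Its log2 fold change was 4.97 ± 0.15 (edgeR, adjusted p = 4.07e-14), but 76.5% of its IPFc level was the expected epithelial part. After subtraction it was 5.37 (adjusted p = 8.42e-06) and with the share as an offset 3.13, whereas with the higher share that AT2 markers give, no Il33 read was left in any library.

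Growth factors known to support lung epithelium split into 16 higher and 7 lower of 33 tested (median 0.34), and without the 9 mixed genes into 9 and 7 (median -0.10). Fgf10, Hgf and Fgf7, mesenchymal factors that act on epithelial receptors, were higher. Fgf10 was at 28.0, 29.4, 21.9 and 16.9 CPM with IPFc and 5.76, 7.53, 7.27 and 4.26 with TGFb, without overlap, while the vehicle libraries, at 13.8 to 21.9, overlapped the IPFc range (log2 fold change 1.94 ± 0.13, edgeR, adjusted p = 1.94e-09). Hgf was at 110 to 192 against 49.0 to 90.5 CPM (1.05), and Fgf7 at 81.6 to 143 against 50.2 to 91.8 CPM (0.64), where the groups overlapped although each mouse's IPFc library was the higher one.

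Pdgfa (log2 fold change -1.55), Fgf2 (-1.46) and Vegfa (-1.04), growth factors for mesenchyme and vessels, were lower. Vegfa was at 252 to 367 against 559 to 639 CPM. Areg, Tgfa, Artn and Pthlh, which act on EGF, RET and parathyroid hormone receptors, were called higher with expected epithelial parts of 86.1, 101, 110 and 188%, and none was called after subtraction, when Areg and Pthlh stood at -1.32 and -2.69. Pleiotrophin, Ptn, was at 7.61 to 9.90 CPM with IPFc and 3.00 to 5.11 with TGFb (1.15), below the 19.9 to 31.9 CPM of vehicle cultures.

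**Figure D5:**
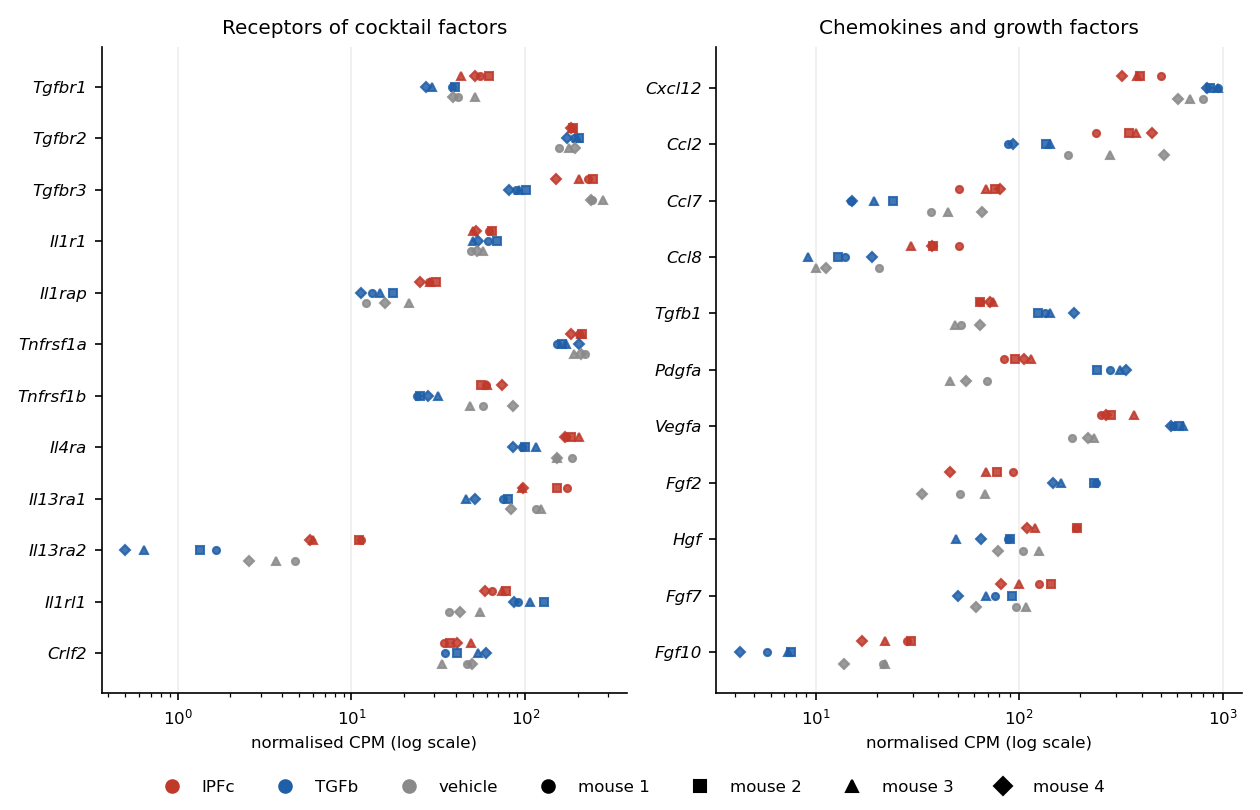
Levels (normalised CPM, log axis) of 12 receptor genes and 11 chemokine and growth factor genes in each of the 4 IPFc (red), 4 TGFb (blue) and 3 vehicle (grey) libraries, with 1 symbol per mouse. Il13ra2, Il1rap and Ccl8 lie higher with IPFc than with either TGFb or vehicle, whereas Tgfbr2 and Il1r1 overlap in all groups.

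Wnt genes split evenly, with 9 higher and 9 lower of 32 tested (median 0.14; 10 and 9 after subtraction). Nkd1, a Wnt-induced Dishevelled inhibitor, was at 7.15 to 18.3 against 0.0627 to 0.579 CPM (5.81), and the Wnt antagonist Sfrp1 at 34.4 to 62.0 against 13.3 to 22.0 CPM (1.44). The R-spondin receptor Lgr6 was lower, at 20 to 31.6 against 67.3 to 83.5 CPM (-1.67), as was the transcription factor Lef1 (-1.39). Of 29 BMP pathway genes, 12 were higher and 9 lower (median 0.27, or 0.05 without the 9 mixed genes), and after subtraction 11 and 5. The antagonists Fstl1, at 184 to 230 against 358 to 425 CPM (-0.99), and Bmper (-0.74) were lower.

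In most of these genes the vehicle cultures resembled the IPFc cultures more than the TGFb cultures. Among genes past 2-fold with an expected epithelial part under 5%, the vehicle mean, as log2 of CPM plus 0.1, was nearer to the IPFc mean for 162 of the 193 higher and for 317 of the 341 lower genes. Vehicle had 3 libraries and entered no test here.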

How the data were processed

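The deposited files hold, per the labels, read counts per gene for each library, not normalised, with 55487 Ensembl genes in each. Bulk RNA was sequenced on a Illumina NovaSeq from NEBNext Ultra II Directional libraries. The submitters' processing notes name Trimmomatic 0.30, DESeq2 1.34.0 and GRCm39, the study's methods GRCm38 patch 6; aligner and counter are not given in the sources used here. The 8 libraries held 12312269 to 16769349 counted reads (median 14100018.5), and replicate libraries differed beyond counting noise.

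Counts of genes with a mean of at least 1 read over the 8 libraries were fitted with edgeR 4.0.16 (R 4.3.3, TMM, quasi-likelihood, treatment plus mouse). Mouse numbers come from the labels and mark the same animal, and same-numbered libraries deviated together from their group means (mean r 0.212, lowest pair 0.185). The mean r of other mice, -0.0706, is tied to this value because deviations cancel out within a group. TMM factors for printed levels came from all 15 fibroblast libraries. Epithelial shares rest on those reference genes whose partner level reached 50 CPM. The scripts were tested on simulated data. Alternatives were no replicate block, DESeq2 1.42.0, limma-voom (limma 3.58.1), DESeq2 size factors, other count filters, robust estimation, all 15 libraries in one model, leaving out each mouse, subtraction of the epithelial share, and the share as an offset; subtraction with the AT2 share was added after seeing the data.

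Genes named were the 12 per direction with the smallest adjusted p among called genes over 2-fold, of the same direction in 4 of 4 mice, with at least 5 CPM and an expected epithelial part under 25%; up to 4 unmixed called genes per list; cocktail receptors and a fixed list of secreted factors; 5 mixed genes per direction by fold change; and markers. A few genes are not reported here, although they stay in the fit and in the list counts. Other list members were named after their values were seen. The members and lists were chosen with earlier results of these data known. Predicted genes and coordinates of genes are not reported, since the builds differ. Y-linked genes were used only for the share, and Xist was listed as a marker but not used for it. No set was tested for enrichment. Nothing says that cultures were repeated independently of the mouse. The p-values of the main fit measure how the difference between IPFc and TGFb varied over these 4 mouse pairs.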

Additional observations from a re-analysis of the deposited data

Results flagged for a closer look

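In 14 of the 244 groups of 4 libraries examined over the named genes, 1 library lay far from the other 3 relative to the group's range; chance alone gives about 1 in 20 such groups. Among IPFc libraries, C3 in mouse 4 was at 1900 CPM against 2340 to 2390 in the others, Dmp1 in mouse 3 at 6.96 (4.18 to 4.58), Tnnt2 in mouse 3 at 14.5 (9.83 to 10.5), Lgr6 in mouse 3 at 31.6 (20 to 21.3) and Cish in mouse 1 at 33.6 (51.3 to 54.6). The low C3 value is in the library with the highest epithelial share, and the high Dmp1, Tnnt2 and Lgr6 values are in 1 library, that of mouse 3.

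Among TGFb libraries, mouse 2 was apart for Tnnt2 at 103 CPM (142 to 150) and Ptgs2 at 603 (313 to 355). Mouse 3 was apart for Pycr1 at 15.6 (11.8 to 12.1) and Sod2 at 45.0 (48.7 to 49.5), and mouse 4 for Fstl1 at 358 (418 to 425) and Il2rg at 0.376 (0.129 to 0.167). For Chil4 at 0.0644 and Reg3g at 0.0644 in mouse 3 and Retnla at 0.0627 in mouse 4 the other 3 TGFb libraries were at 0. None of these libraries brought the IPFc and TGFb groups of C3, Dmp1, Tnnt2, Lgr6, Cish, Fstl1, Pycr1 or Sod2 to overlap. For Ptgs2 the groups overlapped.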

How the results depend on the processing

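Of 17935 genes, 5197 were called with mouse as a block. Without the replicate block 3221 genes were called (1134 of them lower), and with all 15 fibroblast libraries in one model 3155 (966 lower), where 69.4% of the calls were higher against 55.5% with the block and 8 libraries. Leaving out 1 mouse gave 4051 to 5257 calls, and the difference in epithelial share then ran from 13.9 to 19.7 points. DESeq2 called 4218 and limma-voom 5411 genes. With the epithelial share subtracted 4085 genes were called, with the share as an offset 5121, and with the AT2 share subtracted 1988 (1164 higher and 824 lower); the cause of this last loss was not tested, but that setting removes up to 54.3% of a library. The 23 leading genes described above were called in the same direction under every one of these alternatives. Among other named genes, Areg became -1.32 with subtraction, -0.40 with the offset and -9.61 with the AT2 share; Pthlh -2.69 with subtraction and -1.44 with the AT2 share; Chil4 -1.45 and -1.30; Reg3g -1.45 with subtraction; and Ctse 3.73 with subtraction and 0.19 with the offset. With the AT2 share alone, Ptgs1 became 0.056, Msmo1 -0.059, Fads1 0.11, Tgfbr1 -2.76, Il1rl1 0.11, Il4ra -1.47 and Tgfa -2.54. Genes with few reads left after a subtraction have wide errors there. With that share no reads were left for Agr2, Artn, Ctse, Il33, Reg3g and Retnla, and 17 other named genes lost their call without changing direction, among them Inhba, Loxl2, Serpinh1, Bmp1, Bgn, Tnfrsf1b, Vegfa, Fstl1, Bmper, Pmaip1, Pycr1 and Cd177. Without the replicate block Dnajb9, Fads1, Msmo1, Ptgs2 and Tnfrsf1a lost their calls. The Fads1 call was also lost without mouse 2 or mouse 3 (-0.18 each). Among the 121 genes named by rule, no other called gene changed direction. Over all 5197 called genes, 611 had a log2 fold change of the opposite sign after the epithelial share was subtracted.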

Other observations

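Gene groups outside signalling and matrix were counted in the same way, against 16.1% of all tested genes called higher and 12.9% called lower. Of 36 tested glycolysis and hypoxia entries, 23 were higher and 3 lower in IPFc (median log2 fold change 0.32), and 22 and 3 after the epithelial share was subtracted. Pdk1, which diverts pyruvate from the mitochondria, was at 104 to 134 CPM with IPFc and 61.2 to 80.0 with TGFb (0.77), the mitophagy gene Bnip3 at 87.0 to 132 against 55.6 to 84.7 CPM (0.70), and neuronal enolase Eno2 at 273 to 284 against 185 to 226 CPM (0.48). Vegfa, a hypoxia target too, was lower with IPFc than with TGFb (-1.04). Its IPFc mean of 293 CPM was above the vehicle mean of 211 CPM. Antioxidant genes split, with 8 higher and 7 lower of 25 (median 0.17; 7 and 8 after subtraction). Heme oxygenase Hmox1 was at 266, 276, 302 and 316 CPM in the IPFc libraries in ascending order and 544 to 788 with TGFb (-1.15), and Nqo1 (-1.31) and Txnrd1 (-0.76), which like Hmox1 are targets of NRF2, were lower. Sod2, an NF-κB target in mitochondria, was higher, at 79.4 to 100 against 45.0 to 49.5 CPM (0.92).

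In prostaglandin synthesis, 5 of 19 genes were higher and 3 lower (median 0.00; 4 and 4 after subtraction). The prostaglandin E synthase Ptges was at 106 to 129 CPM with IPFc and 22.5 to 37.0 with TGFb (2.03). The prostacyclin receptor Ptgir was higher (1.60), and Ptgs1 (COX-1) was lower (-0.57). Ptgs2 (COX-2) was at 404 to 770 against 313 to 603 CPM (0.53), a call that was lost without the replicate block (edgeR, adjusted p = 0.123) and with all 15 fibroblast libraries in one model (0.0747). Of 29 p53 and senescence genes, 11 were lower and 5 higher (median -0.13; 6 and 4 after subtraction), with Pmaip1 at -0.95 and the death receptor Fas at 1.12. Unfolded protein and stress response genes, with 5 higher and 6 lower of 33, were called at 33.3%, near the 29.0% of all genes (median -0.03; 5 and 7 after subtraction), with the amino acid synthesis genes Asns (-0.36), Aldh18a1 (-0.55) and Pycr1 (-0.67) among the lower.

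Of 40 cell cycle genes tested, 18 were higher and 0 lower by edgeR, and 38 of the 40 were epithelial-mixed; after subtraction 0 were higher and 13 lower. Mki67 was at 218 CPM with IPFc and 149 with TGFb (0.55), with an expected epithelial part of 60.4%. Cholesterol and fatty acid synthesis followed the same course, from 15 higher and 4 lower of 32 (median 0.25), with 20 mixed, to 3 and 10. The fibroblasts had been treated with mitomycin C before co-culture. The TGFb libraries, with Mki67 at 149 CPM, had epithelial shares of only 1.03 to 3.70%. Which cells gave the cell cycle RNA was not tested.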
